A study of Mus musculus with 20 samples.

Results

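Surface marker genes of B cells were described in mouse lymphoma and leukaemia RNA-seq libraries. They are *Ms4a1* (CD20), *Cr2* (CD21 and CD35), *Fcer2a* (CD23), *Cd40*, *Cd38*, *Cd22*, *Cd37*, *Ptprc* (CD45, with its B220 form), *Cd24a* (heat stable antigen) and *Spn* (CD43). These 10 genes are 10 of the 25869 rows of the deposited expression table, found by matching Entrez gene identifiers to symbols, and all 10 had a row. *Ms4a1* was chosen by its measured values, as it was much lower in cultured lymphoma lines than in primary tumours, so the contrast of tumours and lines is given as a description with no test.

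The table holds 20 libraries, of which 10 are of the B lineage. The 6 lymphoma cell lines carry *Eµ-Myc*, a *Myc* transgene under the immunoglobulin heavy chain enhancer, together with the CRISPR activator *dCas9a-SAM* (KI/+) and an sgRNA that activates *Bcl-2* (sg*Bcl-2*). They are the libraries numbered 14 to 17, labelled IgM positive, and 18 and 19, labelled IgM negative. Per the study's methods, each line came from the lymphoma of 1 irradiated mouse that had been transplanted with transduced stem and progenitor cells, and the lines were grown in FMA medium. The 2 primary tumours, libraries 20 and 21, are labelled IgM positive, carry the same alleles and sgRNA, and came from the mice that gave lines 14 and 15. The 2 preB-ALL libraries carry *BCR-ABL1* (p190T/+) without the *Eµ-Myc* and CRISPR activator labels, are named P190CreERLSLErg and P190RagCreErg, and were grown with IL7. The other 10 libraries are mouse embryonic fibroblasts (MEFs), either WT or *dCas9a-SAM* with no sgRNA, a non-targeting sgRNA or sg*Bcl-2*. No sample was given a further treatment, and the labels state no age or strain.

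B cells change their surface proteins as they mature. Pro-B and early pre-B cells carry CD43, CD24 and the surrogate light chain, whereas CD20, CD21, CD22, CD23 and CD40 appear or increase as cells become IgM positive and enter the circulation. CD21 and CD23 are best known from mature follicular and marginal zone B cells in the spleen. CD45 is a phosphatase of all white blood cells, and CD22 and CD37 temper signalling of the antigen receptor.

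Promoters of 4 members are shown, because RNA of *Cr2*, *Fcer2a* and *Cd38* was near 0 in several lines, while *Spn* ran the other way. Each runs from 250 bases before to 50 bases after a transcription start annotated by RefSeq (GRCm38.p6) and is written 5′ to 3′ on the strand of the gene. The positions are chr1:195176670-195176969 (minus) for *Cr2*, chr8:3694125-3694424 (minus) for the first start listed for *Fcer2a*, chr5:43868559-43868858 (plus) for *Cd38* and chr7:127137774-127138073 (minus) for *Spn*. Capitals mark matches on either strand to the E-box CANNTG, the EBF core CCCNNGGG, the PU box GAGGAA, the octamer ATGCAAAT and the TATA box TATAAA, and matches may overlap.
Cr2: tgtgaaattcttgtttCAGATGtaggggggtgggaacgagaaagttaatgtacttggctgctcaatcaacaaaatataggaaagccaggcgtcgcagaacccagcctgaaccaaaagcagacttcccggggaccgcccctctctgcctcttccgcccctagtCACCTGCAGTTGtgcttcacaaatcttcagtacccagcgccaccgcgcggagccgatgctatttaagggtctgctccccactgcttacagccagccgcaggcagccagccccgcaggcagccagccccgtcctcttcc
Fcer2a: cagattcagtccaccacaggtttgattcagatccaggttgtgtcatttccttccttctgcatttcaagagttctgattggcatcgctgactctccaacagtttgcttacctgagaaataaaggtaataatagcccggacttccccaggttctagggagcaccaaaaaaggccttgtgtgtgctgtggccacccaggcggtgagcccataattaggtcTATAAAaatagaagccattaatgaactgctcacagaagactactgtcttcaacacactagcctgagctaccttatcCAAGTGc
Cd38: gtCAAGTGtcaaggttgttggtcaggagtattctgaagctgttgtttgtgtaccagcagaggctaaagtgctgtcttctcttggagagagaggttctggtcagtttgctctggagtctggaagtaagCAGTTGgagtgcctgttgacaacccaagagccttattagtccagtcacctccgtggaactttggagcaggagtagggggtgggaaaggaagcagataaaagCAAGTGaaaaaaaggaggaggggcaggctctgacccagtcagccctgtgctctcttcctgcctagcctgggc
Spn: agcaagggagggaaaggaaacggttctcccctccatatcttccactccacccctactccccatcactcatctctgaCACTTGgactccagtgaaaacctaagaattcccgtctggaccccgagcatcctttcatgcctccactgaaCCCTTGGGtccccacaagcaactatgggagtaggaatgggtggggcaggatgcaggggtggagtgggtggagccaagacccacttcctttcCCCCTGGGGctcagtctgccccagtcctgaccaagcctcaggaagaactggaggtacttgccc
*Cr2* and *Cd38* have 3 E-boxes each in these windows, and *Fcer2a* has 1 E-box and 1 TATA box. *Spn* has 1 E-box and 3 EBF core matches, 2 of which overlap. Of all 32851 promoters in the table, 72.3% hold an E-box, 13.7% an EBF core, 28.3% a PU box, 1.7% the octamer and 13.6% the TATA box. RefSeq promoters were found for 7 of the 10 members, and *Ms4a1*, *Cd24a* and *Cd40* had no entry. These matches are letters in a window and carry no measurement of binding.

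Depth was between 20083235 and 26678417 reads in the 6 lines, 22827729 and 20053004 in tumours 20 and 21, and 14970269 and 12474885 in preB-ALL 1 (P190CreERLSLErg) and preB-ALL 2 (P190RagCreErg). All 7 genes of a list that defines the B lineage, such as *Cd79a*, *Cd79b* and *Pax5*, were detected in each of these 10 libraries, although *Cd74*, the invariant chain of MHC class II, was at 0.531 CPM or below in lines 16, 18 and 19. The pre-B genes *Vpreb1* and *Igll1* were at 1102 CPM or above in both preB-ALL libraries. The 12 fibroblast markers summed to 1733 to 3749 CPM in preB-ALL, 3.91 to 84.2 CPM in the lines and 24.5 to 219 CPM in the tumours. Without *Thy1* the sums were 2.04 to 34.6 CPM in the lines and 11.7 to 50.2 CPM in the tumours. In preB-ALL the sum came mostly from collagens. The listed *Dcn* was at 0 CPM in both preB-ALL libraries, *Lum* at 0.0668 CPM or below and *Thy1* at 2.4 CPM or below. The preB-ALL libraries had 0 reads on all 15 mitochondrial genes of the table, and their RNA was extracted with another kit. Their library names also carry another lane label than those of the lymphoma libraries. Extraction, sequencing, culture and tumour type therefore cannot be told apart in any comparison with preB-ALL.

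**Figure D1:**
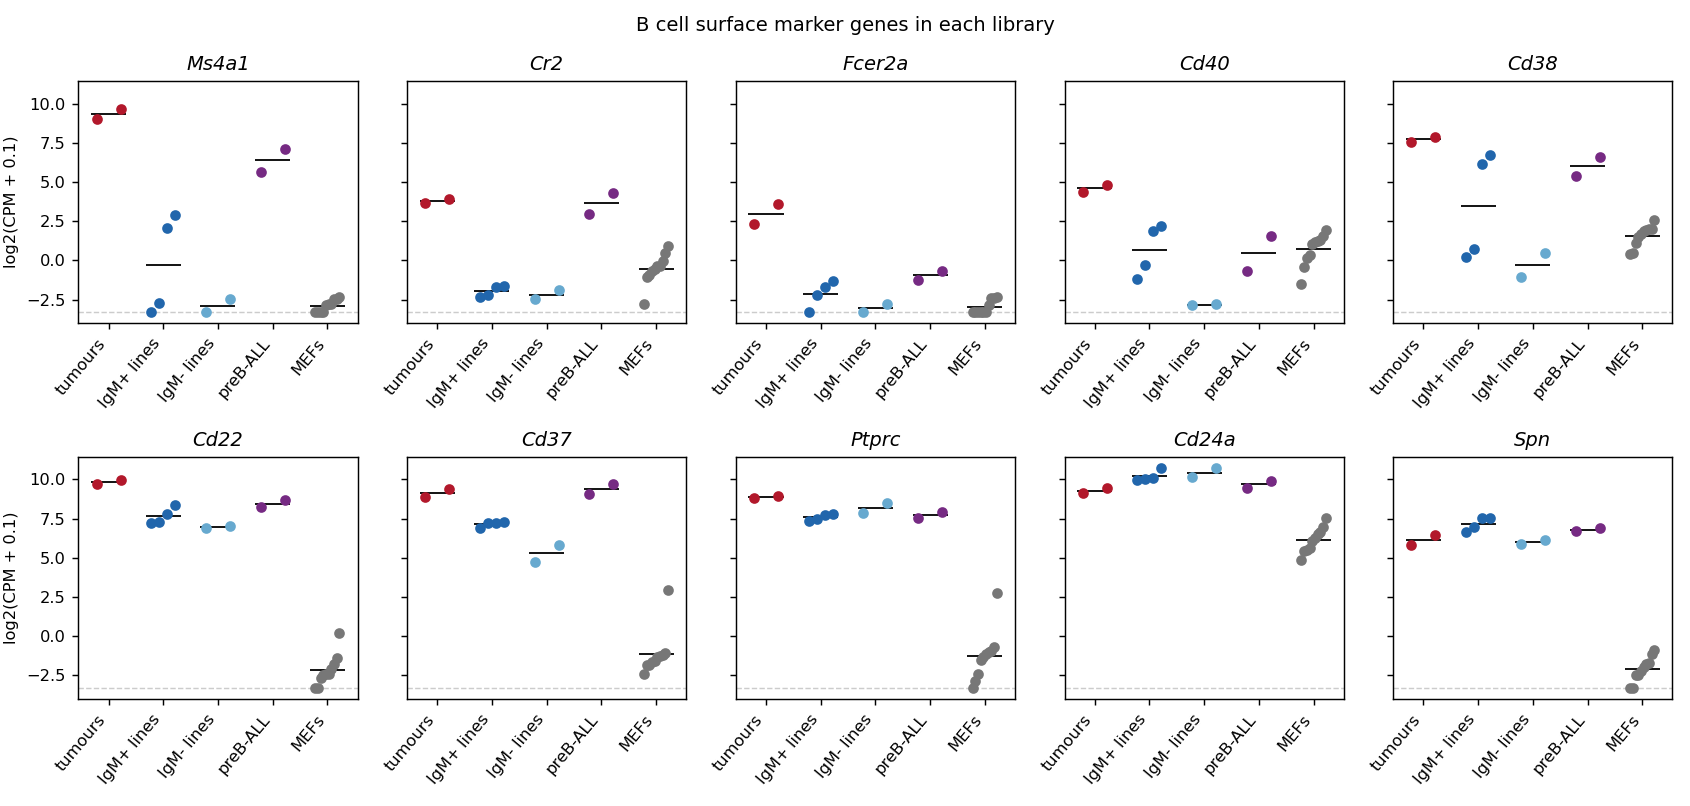
Level of each member in every library as log2(CPM + 0.1), with 1 point per library, points ordered by value within a group and a bar at the mean of the log values. Groups are primary tumours (n = 2), IgM-positive lines (n = 4), IgM-negative lines (n = 2), preB-ALL (n = 2) and MEFs (n = 10), and the dashed line marks 0 CPM. *Ms4a1* runs from 799 CPM in tumour 21 to 0 in lines 16 and 19, whereas *Cd24a* stays at 569 CPM or above in the B-lineage libraries.

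*Ms4a1* encodes CD20, a membrane protein of B cells and the target of rituximab in human lymphoma (Entrez 12482, GRCm38 chr19:11249679-11266149, minus strand). Its level in CPM, the reads of a gene scaled to a common library total, was 529 in tumour 20 and 799 in tumour 21. Lines 14 and 15 had 4.06 and 7.46 CPM, from 100 and 199 reads. Line 17 had 1 read, line 18 had 2 reads, and lines 16 and 19 had 0 reads. The 6 lines thus fell into a pair with low but clear expression and 4 at the limit of detection, where 0 of the reads of line 16 allows up to 0.114 CPM. Such limits, set at 3 reads, cover counting error only. The preB-ALL libraries had 49.2 and 140 CPM, above every line and below both tumours. In order, the tumours stood apart from preB-ALL and preB-ALL from the IgM-positive lines, while the IgM-positive and IgM-negative lines overlapped.

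*Cr2* in mice encodes both CD21 and CD35, receptors for complement fragments bound to antigen, by alternative splicing (Entrez 12902, GRCm38 chr1:195136811-195176880, minus strand). Tumour 20 had 14.9 CPM, tumour 21 had 12.4 CPM, preB-ALL 1 had 20.0 CPM and preB-ALL 2 had 7.62 CPM. None of the 6 lines exceeded 0.225 CPM, which was 6 reads in line 15, and lines 16 to 18 had 3 reads or fewer. Tumours and preB-ALL overlapped, and both lay above all lines. *Fcer2a* encodes CD23, the low affinity IgE receptor (Entrez 14128, GRCm38 chr8:3680280-3694174, minus strand). Its levels were 4.86 and 11.9 CPM in tumours 20 and 21 and 0.534 and 0.321 CPM in preB-ALL 1 and 2. Lines 14 and 15 had 5 and 8 reads, and lines 17 and 18 had 0 reads, which allows up to 0.149 CPM in line 17. Tumours were above preB-ALL without overlap, and preB-ALL above the lines, but the values of the lines and preB-ALL rest on few reads.

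*Cd40* is the receptor for CD40 ligand on helper T cells (Entrez 21939, GRCm38 chr2:165055614-165071654, plus strand). Tumours 20 and 21 had 28.0 and 20.8 CPM. The IgM-positive lines 14, 15, 16 and 17 had 3.57, 4.46, 0.341 and 0.697 CPM, and the IgM-negative lines 18 and 19 had 1 read each. preB-ALL 1 and 2 had 0.534 and 2.89 CPM, within the range of the IgM-positive lines. *Cd38*, an ectoenzyme that consumes NAD (Entrez 12494, GRCm38 chr5:43868809-43912374, plus strand), showed the same split of the lines as *Ms4a1*. Its levels were 104 and 70.0 CPM in lines 14 and 15 and 1.06, 1.54, 1.29 and 0.388 CPM in lines 16, 17, 18 and 19. The highest of the 4 IgM-positive lines was 98.3 times the lowest, so the spread within that group was wider than the distance between line 16 and either IgM-negative line. Tumours 20 and 21 had 191 and 240 CPM, and preB-ALL 1 and 2 had 41.6 and 97.5 CPM, a range that overlaps the IgM-positive lines.

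*Cd22* encodes an inhibitory lectin that recruits the phosphatase SHP-1 to the antigen receptor (Entrez 12483, GRCm38 chr7:30865404-30880342, minus strand). It was high in every B-lineage library. Levels were 1009 and 836 CPM in tumours 20 and 21, 303 and 405 CPM in preB-ALL 1 and 2, 220, 326, 149 and 156 CPM in lines 14 to 17, and 128 and 118 CPM in lines 18 and 19. The IgM-negative lines lay below all IgM-positive lines, and preB-ALL overlapped the latter. *Cd37*, a tetraspanin (Entrez 12493, GRCm38 chr7:45233632-45239340, minus strand), was at 148, 121, 151 and 155 CPM in lines 14 to 17 and at 56.0 and 26.9 CPM in lines 18 and 19. Here the 4 IgM-positive lines were close together, with a highest to lowest ratio of 1.29, and both IgM-negative lines lay below them. Tumours 20 and 21 had 477 and 678 CPM and preB-ALL 1 and 2 had 543 and 849 CPM, so these 2 groups overlapped above all lines.

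*Ptprc* encodes CD45 (Entrez 19264, GRCm38 chr1:138062859-138175756, minus strand), and gene counts do not separate its B220 form from the others. Its range across the B-lineage libraries was narrow, from 166 CPM in line 16 to 493 CPM in tumour 20. Lines 14 to 17 had 212.5, 180, 166 and 221 CPM, lines 18 and 19 had 362 and 236 CPM, tumour 21 had 458 CPM, and preB-ALL 1 and 2 had 184 and 241 CPM. Only the tumours stood apart from the group below them in order. The next neighbours, IgM-negative lines, preB-ALL and IgM-positive lines, overlapped.

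*Cd24a* and *Spn* are the 2 members best known from earlier stages of the B lineage. *Cd24a* encodes a small glycoprotein linked to the membrane by a lipid anchor (Entrez 12484, GRCm38 chr10:43579169-43584265, plus strand). It was at 1043, 1710, 1085 and 1011 CPM in lines 14 to 17 and at 1123 and 1720 CPM in lines 18 and 19. preB-ALL 1 and 2 had 698 and 963 CPM, and tumours 20 and 21 had 691 and 569 CPM. The lines were the highest group and the tumours the lowest, with preB-ALL between them and no overlap between any pair of these groups. The mouse genome holds near copies of *Cd24a*, and how shared reads were counted is not given in the sources used here, so its level is uncertain. *Spn* encodes CD43, a large sialoglycoprotein (Entrez 20737, GRCm38 chr7:127123637-127145552, minus strand). Lines 14 to 17 had 97.8, 186, 127 and 182 CPM and lines 18 and 19 had 68.8 and 57.5 CPM. Tumours 20 and 21 had 88.8 and 55.6 CPM and preB-ALL 1 and 2 had 120 and 103 CPM. The IgM-negative lines overlapped the tumours, and preB-ALL overlapped the IgM-positive lines.

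In the tumours, 8 members were higher than in lines 14 and 15 and 2 were lower, with no overlap of the 2 tumours and the 2 lines for any of the 10. Among all 12719 genes that passed the filter on low values, 57.6% did not overlap, 29.2% with tumours higher and 28.4% with tumours lower. As this contrast chose *Ms4a1*, nothing is read from the count of members. Mean CPM was 115-fold higher in tumours for *Ms4a1*, 63.9-fold for *Cr2*, 33.4-fold for *Fcer2a*, 6.08-fold for *Cd40*, 4.30-fold for *Cd37*, 3.38-fold for *Cd22*, 2.47-fold for *Cd38* and 2.42-fold for *Ptprc*. It was 2.19-fold lower for *Cd24a* and 1.96-fold lower for *Spn*. *Fcer2a* and *Cr2* passed the filter only through the tumours. The 2 tumour libraries carry contradictory mouse numbers in their labels, so no single matching to lines 14 and 15 was used. As the groups do not overlap, either matching gives each member the same sign.

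**Figure D2:**
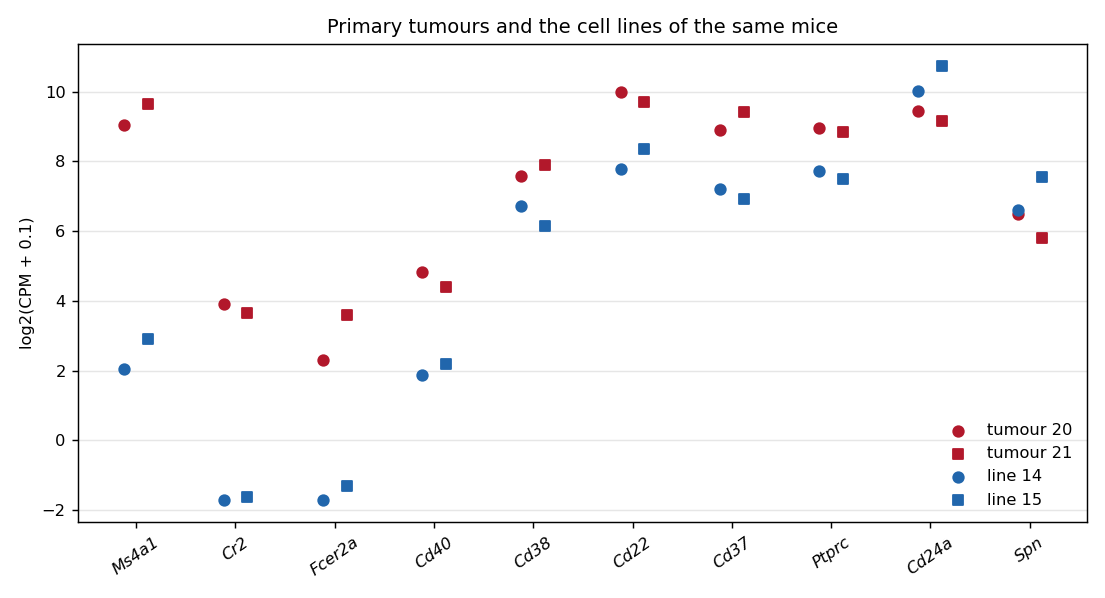
Levels of the members, as log2(CPM + 0.1), in tumours 20 and 21 (red) and in lines 14 and 15 from the same mice (blue), with 1 point per library. The tumours lie above the lines for 8 genes and below them for *Cd24a* and *Spn*, where tumour 20 (88.8 CPM) and line 14 (97.8 CPM) nearly meet.

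The lists of related genes showed the following in the same libraries. Of 15 other surface genes of immature to mature B cells, 15 were higher in both tumours than in both lines, beside 29.2% of all genes. Examples are the homing receptor *Cxcr5*, at 41.7 and 65.6 CPM in tumours 20 and 21 and 1.10 and 0.525 CPM in lines 14 and 15, and *Cd55*, a complement inhibitor, at 48.1 and 71.1 CPM against 4.75 and 0.975 CPM. *Ighd*, the IgD heavy chain, was at 39.3 and 111 CPM in the tumours and 6.37 and 7.80 CPM in the lines. Of 8 surface genes of early B cells that passed the filter, 5 were lower in the tumours and 3 overlapped, beside 28.4% of all genes lower. *Il7r*, the IL-7 receptor, was at 1.14 and 2.99 CPM in tumours 20 and 21 and 142 and 132 CPM in lines 14 and 15. *Il2ra*, a marker of pre-B cells, was at 0.789 and 1.25 CPM against 20.6 and 60.7 CPM. The median log2 difference, tumours minus lines, was 1.82 for the mature list and -3.30 for the early list, beside 0.01 for all genes that passed. The lists were chosen with earlier results of these data known, so nothing is read from these counts and medians.

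Of 13 signalling partners of the members, 8 were higher in both tumours, 1 was lower and 4 overlapped, beside 29.2% of all genes higher and 28.4% lower. The 8 include *Ms4a4c*, at 0.0811 and 0.1125 CPM in lines 14 and 15, which passed the filter only through the tumours. That fixed its direction. *Ptpn6*, which encodes SHP-1, the phosphatase bound by CD22, was at 498 and 383 CPM in tumours 20 and 21 and 91.2 and 257 CPM in lines 14 and 15. *Traf1*, an adaptor of CD40 and related receptors, was at 5.74 and 4.59 CPM against 0.0406 and 0.600 CPM. *Traf6*, another adaptor of CD40, was the lower one, at 32.9 and 49.3 CPM against 143 and 80.4 CPM. *Cd79a* and *Cd79b*, the signalling chains of the antigen receptor, were 3.13-fold and 2.50-fold higher in mean CPM.

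A tumour is a tissue, and in bulk RNA fewer cells of a type and less RNA per cell cannot be told apart. The 12 myeloid markers summed to 34.5 to 42.9 CPM in the tumours and 6.19 to 14.0 CPM in lines 14 and 15, and the macrophage gene *Adgre1* was at 13.3 and 6.33 CPM in tumours 20 and 21 and at 0 reads in every line. The 10 T cell markers summed to 15.5 to 172 CPM in the tumours and 3.20 to 50.2 CPM in lines 14 and 15, which overlap. Most of this was *Thy1*, which fibroblasts also express, and the other 9 summed to 2.69 to 2.98 CPM in the tumours and 0.162 to 0.637 CPM in lines 14 and 15. The 6 NK cell markers summed to 0.598 to 2.67 CPM in the tumours and 0.225 to 0.284 CPM in those lines, and the 6 plasma cell markers to 126 to 150 CPM and 267 to 383 CPM. The follicular dendritic cell markers *Cxcl13*, *Madcam1* and *Clu* had at most 1 read per tumour, while the sum of that list, 290 to 348 CPM, came mostly from *Fcgr2b*, which B cells also express. Of the 3 genes of that list that passed the filter, *Fcgr2b* and *Vcam1* were higher in the tumours and *Mfge8* overlapped. *Vcam1* was at 0.613 and 1.35 CPM in tumours 20 and 21 and at 0 and 0.0750 CPM in lines 14 and 15. It thus passed the filter only through the tumours, which fixed its direction. The 6 erythroid markers in the table summed to 2.94 to 5.49 CPM in the tumours and 0.811 to 1.13 CPM in lines 14 and 15. The part of these cells in the members' differences was not tested, nor was that of B cells other than lymphoma cells, which these lists do not separate.

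**Figure D3:**
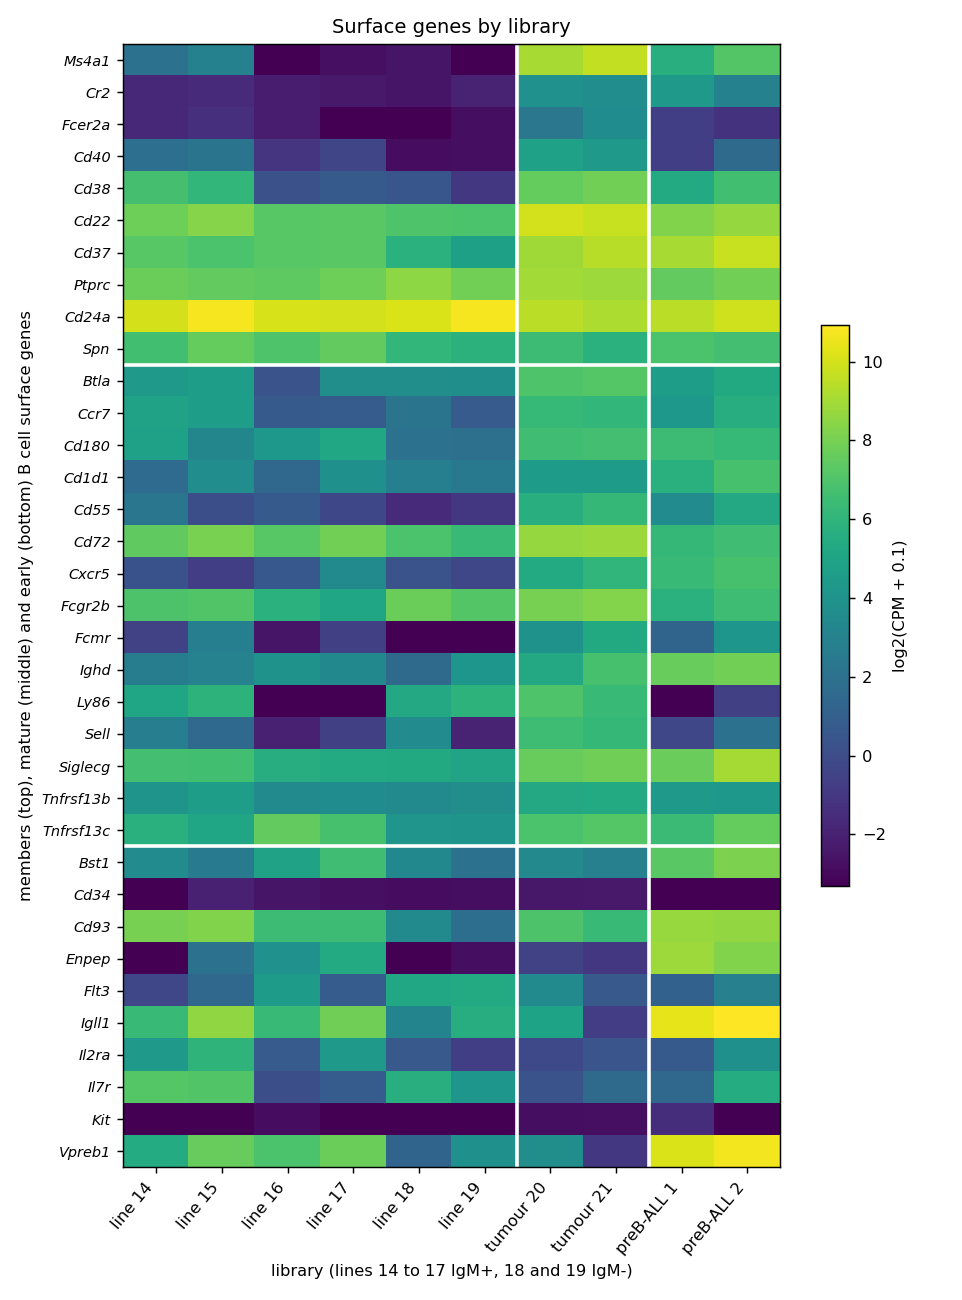
Heatmap of log2(CPM + 0.1) for the 10 members (top), 15 other mature B cell surface genes (middle) and 10 early B cell surface genes (bottom) in the 10 B-lineage libraries. The tumour columns are bright in the middle block and dark for *Il7r* and *Il2ra*, and *Ly86* is at 0 reads in lines 16 and 17.

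IgM-negative and IgM-positive lines were then compared, to ask whether the markers followed surface IgM. Of the 12386 genes tested with limma, 0.597% were called at an adjusted p under 0.05, 0.0484% higher and 0.549% lower in the IgM-negative lines, and 0 of the 8 members tested were called. *Fcer2a* and *Cr2* did not pass the filter on low values here. At an unadjusted p under 0.05, limma gave 4 members, *Cd37*, *Cd40*, *Ptprc* and *Spn*, beside 11.3% of all genes. *Cd40* and *Ms4a1*, at 2 reads or fewer in both IgM-negative lines, passed the filter only through the IgM-positive lines, which fixed their direction, so their values are a description. edgeR gave 0 calls and 4 at an unadjusted p, beside 24 genes called and 11.4% of all genes at an unadjusted p. limma-voom gave 0 and 3, beside 1 gene and 9.28%, and DESeq2 gave 4 and 7, beside 749 genes and 15.9%.

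*Cd37* had the smallest adjusted p of the members. Its mean was 41.4 ± 20.6 CPM (SD, n = 2) in IgM-negative and 144 ± 15.8 CPM (SD, n = 4) in IgM-positive lines, a log2 difference of -1.82 (SE 0.31, 95% interval -2.69 to -0.96, limma adjusted p = 0.0890). It passed the threshold without line 18 (adjusted p = 0.0328), where the IgM-negative lines were line 19 alone, the one with the lowest *Cd37*, assumed to vary like the IgM-positive lines. It also passed with all 10 B-lineage libraries in the limma fit (adjusted p = 0.0396) and in DESeq2 (adjusted p = 3.08e-05), and its adjusted p over the 15 alternatives ran up to 0.250. *Spn* averaged 63.1 ± 8.01 CPM (SD, n = 2) against 148 ± 42.9 CPM (SD, n = 4), with a log2 difference of -1.13 (SE 0.28, limma adjusted p = 0.220). *Ptprc* was the one of these 4 with the opposite sign, at 299 ± 89.1 CPM (SD, n = 2) against 195 ± 26.1 CPM (SD, n = 4), a log2 difference of 0.65 (SE 0.22, limma adjusted p = 0.346). For *Cd40* the log2 difference was -3.43 (SE 1.06, limma adjusted p = 0.319), on a scale with 0.1 CPM added, and both IgM-negative lines rested on 1 read.

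The remaining members gave wide intervals or small differences. *Cd38* had a log2 difference of -3.67 with a 95% interval of -9.45 to 2.11 (limma adjusted p = 0.559), and lines 16 and 17 were about as low as the IgM-negative lines. *Ms4a1* had an interval of -8.05 to 2.86, *Cd22* of -1.50 to 0.18 and *Cd24a* of -0.41 to 0.99, with limma adjusted p of 0.660, 0.485 and 0.699. DESeq2 called *Cd37*, *Cd38* (adjusted p = 0.0409), *Cd40* (adjusted p = 0.00991) and *Spn* (adjusted p = 0.00492), all lower in IgM-negative lines, a direction that the filter had fixed for *Cd40*. In other alternatives the adjusted p reached 0.250 for *Cd37*, 0.940 for *Cd38*, 0.832 for *Cd40* and 0.556 for *Spn*. With 2 libraries in the smaller group, the members' intervals allow differences of several-fold in *Ms4a1*, *Cd38* and *Cd40* in particular.

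None of the 15 mature surface genes, 8 early surface genes or 11 signalling partners tested was called in limma in this comparison. At an unadjusted p under 0.05, limma gave 4, 5 and 4 of these genes, beside 11.3% of all genes. edgeR and limma-voom called 0 in each list, and DESeq2 called 4, 5 and 1, beside 749 of all 12386 genes. *Cd93*, an early B cell antigen also known as AA4.1, had the smallest adjusted p of the early list, with 11.3 and 3.45 CPM in lines 18 and 19 and between 87.3 and 296 CPM in the IgM-positive lines (log2 difference -4.56, limma adjusted p = 0.0639). *Ptpn6* was at 39.9 and 37.3 CPM in lines 18 and 19 and 91.2 CPM or above in the IgM-positive lines (log2 difference -1.87, limma adjusted p = 0.124). *Cd180*, a Toll-like receptor homologue, was at 3.91 and 3.71 CPM in lines 18 and 19 and between 9.07 and 35.8 CPM in the others (log2 difference -2.35, limma adjusted p = 0.216). None of these 3 genes passed the threshold in limma.

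**Figure D4:**
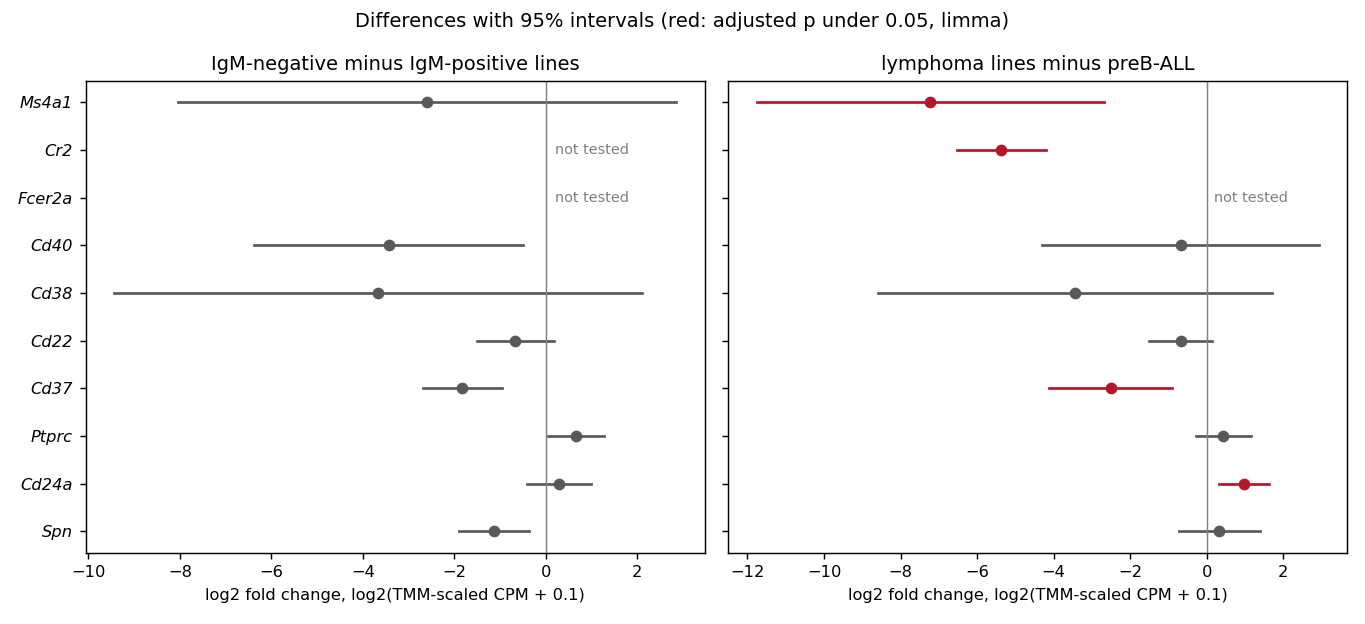
Log2 differences of the members from limma with 95% intervals, on the log2(TMM-scaled CPM + 0.1) scale. Panels show IgM-negative minus IgM-positive lines (left) and lymphoma lines minus preB-ALL (right). The intervals use limma's SE with the residual degrees of freedom only, so they are wider than limma's p-values imply. Red marks an adjusted p under 0.05, reached by 0 members on the left and by *Ms4a1*, *Cr2*, *Cd37* and *Cd24a* on the right, where *Ms4a1* was chosen for low values in lines and *Cr2* passed the filter only through preB-ALL. Genes that did not pass the filter are marked as not tested.

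The 6 lymphoma lines were also compared with preB-ALL. Here 43.4% of 13961 genes were called, 20.9% higher and 22.5% lower in the lines. Of the 9 members tested, *Cd24a* was higher, *Cr2*, *Cd37* and *Ms4a1* were lower, and 5 were not called. *Ms4a1* was chosen for its low values in lines and *Cr2* passed the filter on low values only through preB-ALL, which leaves *Cd37* and *Cd24a*, and nothing particular to the members is read from the count. *Fcer2a* did not pass the filter. Without a scaling factor, 27.8% of all calls were higher in the lines instead of 48.1%, and the median of all genes moved by -0.352.

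*Cr2*, which had to differ because it passed the filter only through preB-ALL, is given as a description. It averaged 0.149 ± 0.0599 CPM (SD, n = 6) against 13.8 ± 8.79 CPM (SD, n = 2), and its log2 difference was -5.36 (SE 0.47, 95% interval -6.52 to -4.21, limma adjusted p = 4.62e-05). *Cd37* averaged 110 ± 55.1 CPM (SD, n = 6) against 696 ± 216.3 CPM (SD, n = 2), a log2 difference of -2.51 (SE 0.65, limma adjusted p = 0.0147). *Cd24a* averaged 1282 ± 338 CPM (SD, n = 6) against 831 ± 187 CPM (SD, n = 2), a log2 difference of 0.97 (SE 0.27, limma adjusted p = 0.0190). *Ms4a1* averaged 1.94 ± 3.15 CPM (SD, n = 6) against 94.6 ± 64.3 CPM (SD, n = 2), a log2 difference of -7.23 (SE 1.85, limma adjusted p = 0.0139), but its low level in lines 14 and 15 is what chose it, so this value is a description.

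These calls depend on few libraries. Without preB-ALL 1 or without preB-ALL 2, *Cd37*, *Cd24a* and *Ms4a1* were not called, and the lone preB-ALL library was assumed to vary like the lines. Without a scaling factor *Cd24a* was not called (adjusted p = 0.108). With tumours 20 and 21 in place of lines 14 and 15, 0 members were called by limma, and the adjusted p of *Cr2* was 0.228, the highest over its 19 alternatives. The fibroblast marker RNA of the preB-ALL libraries moved with this comparison. Of 10 fibroblast markers tested, 9 were called lower in the lines, beside 22.5% of all genes. Some of them, such as *Col6a1*, *Pdgfra* and *Pdgfrb*, at 0.262 CPM or below in every line, passed the filter only through preB-ALL. That fixed their direction, so nothing is read from this count. In the MEFs themselves, *Cd24a* was at 29.1 to 184 CPM, *Cr2* reached at most 1.75 CPM and *Ms4a1* 0.0975 CPM. *Cd37* reached 7.56 CPM in WT library 13, which held myeloid RNA, and 0.364 CPM in the other 9.

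*Cd22* (log2 difference -0.67), *Cd38* (-3.44), *Cd40* (-0.68), *Ptprc* (0.44) and *Spn* (0.34) were not called, with limma adjusted p of 0.140, 0.217, 0.735, 0.256 and 0.557. Without line 15, whose *Cd22* level was the highest of the lines, *Cd22* was called (adjusted p = 0.0196), the lowest value over its alternatives, which ran up to 0.934. The signs for *Cd40* and *Spn* changed with the processing. For *Ptprc*, the 95% interval of the difference ran from -0.28 to 1.16.

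The counts below stand beside 22.5% of all genes called lower and 20.9% called higher, and nothing particular to a list is read from them. Among the other mature surface genes, 5 of 15 were lower and 1 was higher in the lines than in preB-ALL. *Ighd* was at 2.89 to 17.7 CPM in the lines and 197 and 235 CPM in preB-ALL 1 and 2 (log2 difference -4.26, limma adjusted p = 0.000813). *Cxcr5* was at 0.525 to 11.2 CPM against 77.2 and 109 CPM (log2 difference -5.55, limma adjusted p = 0.00255). The exception was *Cd72*, an inhibitory receptor of B cells, at 81.8 to 270 CPM against 72.4 and 94.9 CPM (log2 difference 1.31, limma adjusted p = 0.0276). Of 8 early surface genes tested, 4 were lower in the lines, *Vpreb1*, *Igll1*, *Enpep* and *Bst1*, and 0 were higher. edgeR and DESeq2 called 2 early genes each, beside 39.8% and 43.9% of all genes. Of 12 signalling partners tested, 5 were lower and 1, the CD40 adaptor *Traf3*, was higher (log2 difference 1.57, limma adjusted p = 0.0117).

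Levels were compared between members per kilobase of exon sequence. In the tumours, mean CPM per kilobase was 244 for *Cd24a*, 183 for *Cd22*, 164 for *Cd37*, 107 for *Ms4a1* and 55.3 for *Cd38*, with *Ptprc*, *Spn*, *Cd40*, *Fcer2a* and *Cr2* following from 26.0 down to 1.68. In the lines, *Cd24a* was at 497, *Cd22* at 36.3, *Cd37* at 31.2, *Spn* at 25.6 and *Ptprc* at 12.6. *Ms4a1* was at 0.655 and 1.21 CPM per kilobase in lines 14 and 15 and at 0.0126 or below in the other 4 lines, which restates the values that chose it. In preB-ALL it stood at 15.3, between *Cd38* at 17.9 and *Ptprc* at 11.6. *Cd24a* was first and *Fcer2a* among the last 2 in each of these 3 groups.

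The pattern of *Ms4a1* across the 10 B-lineage libraries was compared with that of all 14378 genes that passed the filter, by Pearson's r on log2(TMM-scaled CPM + 0.1). The 5 most alike were *Sp100* (r = 0.990), *Plek* (r = 0.987), *1600014C10Rik* (r = 0.984), *Rnase6* (r = 0.984) and *Dnaaf4* (r = 0.983). *Plek* had 0 to 6.07 CPM in the lines, 52.5 and 172 CPM in tumours 20 and 21, and 7.21 and 14.8 CPM in preB-ALL 1 and 2. Of the members, *Cd22* (r = 0.928), *Cd38* (r = 0.926) and *Cr2* (r = 0.901) were closest, *Fcer2a*, *Cd37* and *Cd40* lay between 0.834 and 0.871, and *Ptprc* was at 0.338. *Spn* (r = -0.321) and *Cd24a* (r = -0.768) had the opposite sign. These values describe libraries in separate clusters that differ in depth and extraction, and no p is attached.

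In the MEFs, which should lack B cell proteins, *Ms4a1*, *Fcer2a*, *Spn* and *Cr2* were at most at 0.0975, 0.0975, 0.430 and 1.75 CPM. *Cr2* was thus higher in most MEFs than in the lymphoma lines, where it did not exceed 0.225 CPM. *Cd24a* was at 29.1 to 184 CPM, *Cd38* at 1.25 to 5.83 CPM and *Cd40* at 0.259 to 3.80 CPM in the 10 libraries. The WT library 13 stood apart, with *Ptprc* at 6.61 CPM, *Cd37* at 7.56 CPM and *Cd22* at 1.03 CPM, while the other 9 MEF libraries reached 0.517, 0.364 and 0.283 CPM. The myeloid markers of that library summed to 244 CPM, against 9.28 CPM in the other WT library.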

How the data were processed

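RNA-seq was analysed from 20 mouse libraries prepared with a TruSeq kit. The authors aligned reads with Rsubread to GRCm38. The deposited values are CPM, not logged, for 25869 genes with Entrez identifiers. Whether strand was used in counting is not given in the sources used here, so overlapping and antisense genes are uncertain. All CPM values were whole multiples of 1 read (100%, tolerance 0.001 reads), and reads were recovered from them. RefSeq gave symbols for 25242 genes, and GENCODE M21 (GRCm38) gave positions and exon lengths.

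Genes were kept by filterByExpr on the recovered reads, and log2(TMM-scaled CPM + 0.1) was tested with limma (lmFit, eBayes with trend), two-sided, with Benjamini-Hochberg adjustment over all genes tested and a threshold of 0.05. Only libraries of the compared groups entered a fit. Mean, SD and fold values in the text are of unscaled CPM. R 4.3.3, limma 3.58.1, edgeR 4.0.16, DESeq2 1.42.0 and Python 3.11.15 were used. The code was tested on simulated data. Alternatives were edgeR, DESeq2 and limma-voom on recovered reads, RLE or no scaling, pseudocounts of 0.5 and 1, no filter, all 10 B-lineage libraries in the fit, other sets of lines, and each library left out in turn.

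Genes named are the members, the 5 genes most like *Ms4a1*, examples from the lists, and genes chosen after their values were seen. The members and lists were chosen with earlier results of these data known, and 1 listed gene is not reported here. The lymphoma lines are from separate mice, whereas the labels do not say whether the preB-ALL libraries are from separate animals, so p-values there may measure technical spread. No pair of libraries held identical values.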

Additional observations from a re-analysis of the deposited data

Results flagged for a closer look

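Among 20 sets of values tested for a library far from the others (10 members, in the 4 IgM-positive lines and in all 6 lines), 2 were found, and chance gives about 1 in 20. *Cd24a* was at 1710 CPM in line 15, away from the other IgM-positive lines at 1011 to 1085 CPM, with a gap of 0.894 of the range against a critical value of 0.829. IgM-negative line 19 had a similar level of 1720 CPM, so line 15 was not apart among all 6 lines.

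*Ptprc* was at 362.3 CPM in IgM-negative line 18, above the other 5 lines at 166 to 236 CPM, with a gap of 0.643 of the range against a critical value of 0.625. No test of a cause was made for either value.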

How the results depend on the processing

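For IgM-negative against IgM-positive lines, 0 members were called by limma (beside 74 of all genes), 4 by DESeq2 (749) and 1 with all 10 B-lineage libraries in the fit (153), and the count ran from 0 to 1 when each line was left out, the 1 being *Cd37* without line 18. For lymphoma lines against preB-ALL, 4 were called (beside 6059 of all genes), and 0 with tumours 20 and 21 in place of lines 14 and 15 (3668). The count ran from 1 to 5 when each library was left out, with 1 without preB-ALL 1 (5075) or preB-ALL 2 (3177), *Cr2*, which passed the filter only through preB-ALL, and 5 without line 15 (6061).

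Direction was reversed for *Cd40* against preB-ALL, from -0.68 to 0.19 in edgeR, 0.0828 in DESeq2, 0.14 with the tumours in place of lines, 0.48 with IgM-positive lines only and 0.34 without preB-ALL 2, while leaving out 1 library at a time gave -1.76 (without preB-ALL 1) to 0.34. *Spn* went from 0.34 to -0.0261 without a scaling factor and -0.0179 with the tumours in place of lines. The cause was not tested. Of the members' values under the alternatives, 112 kept their direction and side of the threshold in the IgM comparison and 6 passed it. Against preB-ALL, 151 kept both, 11 lost the call, 1 gained it and 7 were reversed. For tumours minus lines, 61 values moved by less than the spread between replicates and 9 by more. With all 4 IgM-positive lines the log2 difference went from 6.81 to 9.61 for *Ms4a1*, 1.27 to 4.28 for *Cd38*, 2.52 to 3.94 for *Cd40*, 1.73 to 2.16 for *Cd22* and 5.41 to 5.74 for *Cr2*. With a pseudocount of 1, *Cr2* was at 3.56 and *Fcer2a* at 2.78 instead of 4.43. *Fcer2a* was at 5.12 without tumour 20 and 3.78 without tumour 21, and *Ptprc* at 1.06 instead of 1.23 without line 15. Groups of 2 libraries limit each comparison, and levels under 3 reads are not separated from 0. No paired analysis was possible because the groups tested share no replicate numbers and the tumour contrast comes from no test. The labels allow 2 matchings of the tumours to lines 14 and 15, and as these groups do not overlap, both give each member the same sign.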

Other observations

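The genes of this section were chosen after their values were seen. *Ly86* encodes MD-1, the secreted partner that CD180 needs to reach the cell surface. *Ly86* had 0 reads in lines 16 and 17 and in preB-ALL 1, and 34.9, 60.0, 38.2 and 60.4 CPM in lines 14, 15, 18 and 19. *Cd180* was at 28.6, 9.07, 19.4, 35.8, 3.91 and 3.71 CPM in lines 14 to 19. In tumours 20 and 21 both were present, with *Ly86* at 130 and 79.2 CPM and *Cd180* at 93.5 and 103 CPM.

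The split of lines 14 and 15 from the other lines that *Ms4a1* and *Cd38* show was shared by *Ccr7*. *Il7r* was also highest in lines 14 and 15, but lines 18 and 19 lay well above lines 16 and 17. *Il7r* was at 142 and 132 CPM in lines 14 and 15, 0.986 and 1.69 CPM in lines 16 and 17, and 50.8 and 17.8 CPM in lines 18 and 19. *Ccr7*, a chemokine receptor that guides B cells to T cell zones, was at 29.9 and 24.1 CPM in lines 14 and 15 and at 4.45 CPM or below in the other 4. *Flt3*, a receptor of early progenitors, was at 37.8 and 41.9 CPM in lines 18 and 19 and 22.5 CPM in line 16, against 2.74 CPM or below in lines 14, 15 and 17.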
